A study of Mus musculus with 19 samples.

Results

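Glycolysis and hypoxia response genes were examined in mouse CD4+ T cells, some of them sorted by a reporter for the transcriptional repressor BCL6, which T follicular helper (Tfh) cells need. The other samples were sorted by CXCR5 and PD-1 without the reporter or were naive cells. The genes are a given list of 34 that encode glucose carriers, glycolytic enzymes, regulators of pyruvate use and components or targets of the hypoxia-inducible factor (HIF) pathway. Each gene was represented by the probe set with the highest mean over the 19 arrays among those annotated with its symbol alone, and it was kept where that probe set reached log2 4 on at least 2 arrays. Of the 34 genes, 30 met the rule, out of 9928 genes that met it in the whole series. No probe set carried the symbol Gapdh, Gpi1 or Eno1 alone, and the probe set of Vegfa, a HIF target that drives vessel growth, did not pass the filter (mean 2.30). The gene listed as Ero1l is annotated under its current symbol, Ero1a.

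The 6 groups came from C57BL/6J mice, with 1 array per sorted sample. Immunized mice gave lymph node cells that were CXCR5hi PD-1hi and either YFP-positive (n = 4, of which replicate 4 was from day 10 and the others from day 7) or YFP-negative (n = 4, replicates 1 and 4 from day 10) for a BCL6-YFP reporter. They also gave CXCR5lo PD-1lo cells (n = 3, day 7), CXCR5hi PD-1hi cells of Bcl6yfp/+ genotype (n = 3, day 7) and CXCR5hi PD-1hi cells of Bcl6+/+ genotype (n = 3, replicates 1 and 2 from day 10). Naive CD4+ cells (n = 2) came from spleens of unimmunized mice, so that these comparisons also differ in organ. One protocol text stands with all samples. It describes OT-II cells, whose transgenic receptor recognises an ovalbumin peptide, that carried 1 reporter allele and were moved into host mice, which then received a subcutaneous injection of NP-coupled ovalbumin emulsified in complete Freund's adjuvant. That text may not describe the naive or the Bcl6+/+ cells. In the reporter cells 1 Bcl6 allele carries YFP and the other is unmodified. Whether replicate arrays stem from different mice is not stated in the labels, so a p-value here reflects the scatter among the hybridised samples, part of which may be technical.

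Values are log2 expression per probe set after GCRMA, a background correction and summary of each probe set's probes. A value near 2 is the floor of this scale, and a fold change against a group at the floor depends on that floor. The median of an array was between 2.40 and 2.99, and the share of its probe sets at log2 4 or more between 40.9% and 46.6%. By the distribution of their values the arrays fell into 7 sets that look normalized together. Sets 1 to 3 each held 1 array from both YFP groups and 1 CXCR5lo PD-1lo array, all of the same replicate number. Set 4 held replicate 4 of both YFP groups with naive 1, set 5 Bcl6yfp/+ 1 with naive 2, set 6 replicates 2 and 3 of both Bcl6 genotypes, and set 7 Bcl6+/+ 1 alone. The 4 arrays of set 6 were nearly alike, with a mean absolute difference of 0.144 to 0.194 log2 between any pair. For other pairs of the same group it was 0.385 to 0.971. On any pair of the set 6 arrays 623 to 786 of the 9928 genes had identical values, against 0 on the other pairs compared. How far these arrays are separate readings is unclear, which weighs on any test of these genotypes. The fit shares 1 estimate of the spread over all groups, so their small spread enters the other comparisons too. The 10 T cell identity genes that passed the filter had means of 13.47 to 14.24 on all arrays. Cxcr5, the receptor used for the sort, was 13.77 to 14.05 in YFP-positive, 13.66 to 13.74 in YFP-negative, 9.45 to 10.89 in CXCR5lo PD-1lo, 12.92 to 13.83 in Bcl6yfp/+, 13.62 to 13.86 in Bcl6+/+ and 2.26 and 2.39 in naive cells. Transcripts listed as markers of other cells were present on single arrays and in whole groups. Of 4 of 16 B cell markers that passed the filter, Cd22 was 8.89 to 11.81 in CXCR5hi PD-1hi cells and 2.20 to 5.35 elsewhere. In CXCR5hi PD-1hi cells Cd72 was 5.43 to 7.47, against 9.46 to 10.45 elsewhere. Cd79b was 5.26 to 5.36 in CXCR5lo PD-1lo cells and at most 2.81 elsewhere, and Ighm was 11.22 to 12.61. Of 2 CD8 T and NK markers, Klrd1 was 2.03 to 4.95 in CXCR5hi PD-1hi cells and 9.81 to 11.45 elsewhere, and Cd8b1 was 5.40 to 7.59. Jchain, an antibody-chain gene of plasma cells, was 12.42 and Lyz2, a lysozyme gene of myeloid cells, 10.98 on YFP-negative 1, and on CXCR5lo PD-1lo 1 they were 10.53 and 6.76. Over the 5 of 8 germinal centre B and plasma cell markers that passed the filter, the mean level was 5.98 to 7.45 in YFP-positive, 6.20 to 9.03 in YFP-negative, 7.68 to 9.15 in CXCR5lo PD-1lo, 6.28 to 7.06 in Bcl6yfp/+, 6.53 to 7.32 in Bcl6+/+ and 5.77 to 5.91 in naive cells. Over 7 of 19 myeloid and dendritic markers it was 4.43 to 5.92, 4.19 to 7.64, 5.45 to 6.90, 4.27 to 5.30, 4.29 to 5.39 and 4.28 to 4.90 in the same order, and 0 of 6 erythroid and platelet markers passed. The 3′ minus 5′ difference of the Gapdh control probe sets, a measure of RNA integrity, was highest on Bcl6+/+ 1 (2.34), naive 2 (1.26), Bcl6yfp/+ 1 (1.02) and naive 1 (0.94), and 0.40 to 0.74 elsewhere. In such bulk samples, fewer cells of a type and less RNA per cell cannot be told apart.

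Glycolysis splits glucose into pyruvate in the cytosol. Glucose enters through GLUT carriers, hexokinases trap it, phosphofructokinases commit it, and lactate dehydrogenase and the monocarboxylate carriers turn surplus pyruvate into exported lactate. Pyruvate dehydrogenase kinases (PDKs) restrain pyruvate dehydrogenase, and so the use of pyruvate in the mitochondria. HIF-1 pairs HIF-1α with ARNT and switches on many of these genes through a short DNA element, while the EGLN prolyl hydroxylases use oxygen to mark HIF-1α for destruction. Activated T cells are known for a high glycolytic rate and naive T cells for a low one, and germinal centres, where Tfh cells reside, are known to hold hypoxic zones.

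The first question was how the genes differ between each antigen-experienced group and naive cells. Between 7 and 20 of the 30 tested genes differed, in both directions. In YFP-positive cells 16 rose and 4 fell at an adjusted p under 0.05 (limma, hereafter called), while of all tested genes 28.8% were called, 22.4% higher and 6.44% lower. In YFP-negative cells 12 rose and 4 fell, while 21.1% of all genes were called, 16.5% higher and 4.62% lower. In CXCR5lo PD-1lo cells 6 rose and 1 fell, while 11.9% of all genes were called, 10.3% higher and 1.57% lower. In the CXCR5hi PD-1hi cells of both Bcl6 genotypes, taken as their mean (below, the Bcl6 genotypes), 15 rose and 4 fell, while 34.3% of all genes were called, 28.4% higher and 5.9% lower. Hk2, Pfkp, Tpi1, Pgam1, Pkm and Egln3, 6 genes in all, rose in each of the 4 comparisons, as did 793 of the 9928 genes (7.99%). Pdk2 was the 1 gene of the list that fell in each of them, Slc2a3, Eno3 and Pdk1 fell in some, and 9 genes were called in none. Of all genes, 127 (1.28%) fell in each comparison and 5782 (58.2%) were called in none. The 9 were Slc2a1, Pfkm, Ldhb, Slc16a1, Pfkfb4, Arnt, Bnip3, Tpst1 and Ero1a.

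The arrays also differed in overall scale, which bears on these counts. The median log2 difference from naive was 0.98 for the 30 genes and 0.39 for all tested genes in YFP-positive cells, 0.70 and 0.38 in YFP-negative cells, 0.48 and 0.46 in CXCR5lo PD-1lo cells, and 0.82 and 0.50 in the Bcl6 genotypes. The excess of the 30 genes over all genes was therefore 0.58, 0.32, 0.02 and 0.32 in that order. After quantile normalization of all arrays it was 0.62, 0.35, 0.06 and 0.20, with medians of all genes between -0.08 and 0.07. On that scale the split was 4 rose and 5 fell in CXCR5lo PD-1lo cells (Bnip3, Ldhb, Pdk1, Pdk2 and Slc2a3 being the 5) and 9 rose and 5 fell in YFP-negative cells, while of all genes 635 rose and 735 fell in the first and 1264 rose and 1536 fell in the second. The 4 comparisons share the same 2 naive arrays. Without naive 1 the counts were 15, 9, 3 and 11, and without naive 2 they were 14, 8, 2 and 16, in the order YFP-positive, YFP-negative, CXCR5lo PD-1lo and Bcl6 genotypes. Of all genes 1943, 1397, 697 and 1852 were then called without naive 1, and 1585, 1122, 569 and 1713 without naive 2. Without CXCR5lo PD-1lo 1 the count for that group was 3 (654 of all genes), and without CXCR5lo PD-1lo 2 it was 4 (851). The genes whose call rested on 1 array are named below beside their values, and those whose call rested on a processing step follow them. Cell cycle genes moved along with these differences. The mean log2 level of 40 such genes was 9.73 to 12.24 in YFP-positive, 7.24 to 10.36 in YFP-negative, 7.91 to 11.005 in CXCR5lo PD-1lo, 9.78 to 10.13 in Bcl6yfp/+, 9.99 to 10.69 in Bcl6+/+ and 5.97 to 6.09 in naive cells. Of the 40, 35 rose and 1 fell in YFP-positive, 19 rose in YFP-negative, 16 rose in CXCR5lo PD-1lo cells and 31 rose in the Bcl6 genotypes against naive cells. The part of cell division in the glycolytic differences was not tested.

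**Figure D1:**
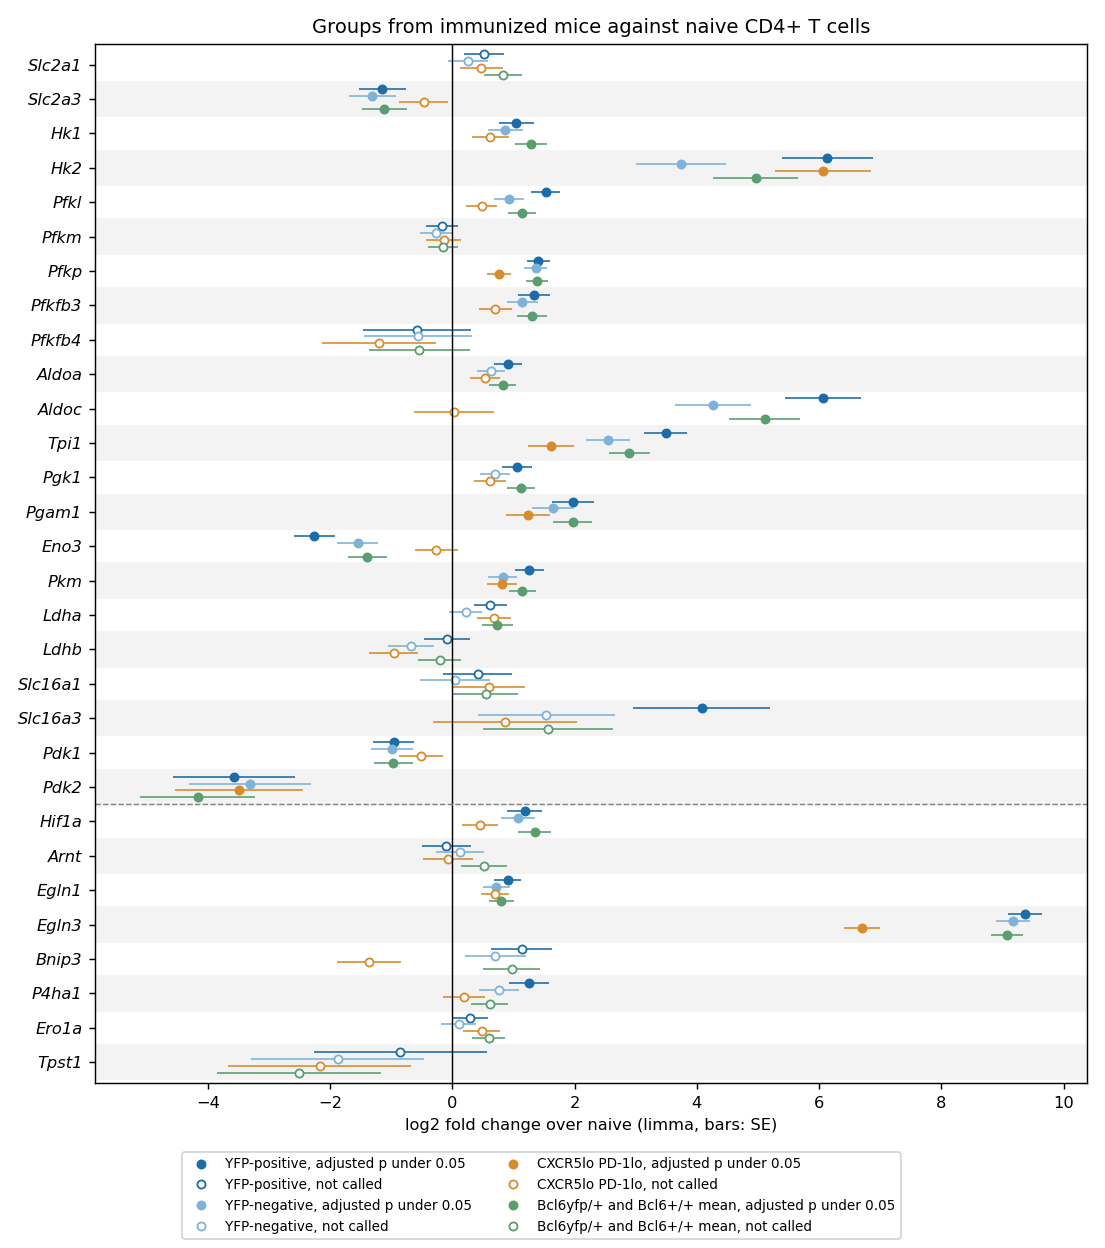
Log2 fold change against naive cells (horizontal axis, bars are ± 1 SE of the limma fit) for the 30 tested genes in YFP-positive, YFP-negative, CXCR5lo PD-1lo and the mean of Bcl6yfp/+ and Bcl6+/+ cells, with filled points for genes called at adjusted p under 0.05. Egln3 lies farthest to the right in each group (6.70 to 9.37) and Pdk2 farthest to the left (-4.17 to -3.31).

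Among the genes called against naive cells, Egln3, Hk2, Aldoc and Pdk2 had the largest changes of those with the core HIF element ACGTG in a promoter entry. Their promoters are printed so that the element can be seen in its context, 250 bases before to 50 after the transcription start, as 5′ to 3′ on the gene's own strand. The sequences are from RefSeq on GRCm38.p6, and capitals mark ACGTG or its reverse complement CACGT. The promoter of Egln3, an oxygen-dependent prolyl hydroxylase, lies at chr12:54203825-54204124 on the minus strand and holds 1 element, whose first base is at -229 from the start site (position 0). That of Hk2, the inducible hexokinase, lies at chr6:82774405-82774704 on the minus strand and holds 2, at -226 and -52, both as the reverse complement. That of Aldoc, aldolase C, printed here lies at chr11:78322823-78323122 on the plus strand and holds 1, at 27, as the reverse complement. A second promoter entry of Aldoc, at chr11:78323948-78324247, holds 0 and is not printed. The promoter of Pdk2, a pyruvate dehydrogenase kinase, lies at chr11:95041322-95041621 on the minus strand and holds 2 that overlap as CACGTG, the palindrome that is also called an E-box.
Egln3: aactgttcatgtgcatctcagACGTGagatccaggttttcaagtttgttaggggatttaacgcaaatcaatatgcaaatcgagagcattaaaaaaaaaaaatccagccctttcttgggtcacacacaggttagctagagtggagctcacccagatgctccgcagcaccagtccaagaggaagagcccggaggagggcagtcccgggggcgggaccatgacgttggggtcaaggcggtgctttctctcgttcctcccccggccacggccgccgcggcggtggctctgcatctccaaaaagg
Hk2: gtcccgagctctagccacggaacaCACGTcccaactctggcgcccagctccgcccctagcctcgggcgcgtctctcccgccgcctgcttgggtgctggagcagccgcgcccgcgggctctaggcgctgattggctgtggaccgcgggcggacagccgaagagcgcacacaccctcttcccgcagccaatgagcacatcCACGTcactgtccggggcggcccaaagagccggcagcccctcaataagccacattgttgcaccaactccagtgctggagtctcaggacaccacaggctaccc
Aldoc: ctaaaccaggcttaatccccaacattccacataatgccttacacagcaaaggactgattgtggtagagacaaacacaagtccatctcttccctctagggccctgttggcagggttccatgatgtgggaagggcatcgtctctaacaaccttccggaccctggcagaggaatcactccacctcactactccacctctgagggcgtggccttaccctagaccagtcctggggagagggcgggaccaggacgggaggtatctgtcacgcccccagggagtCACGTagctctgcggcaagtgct
Pdk2: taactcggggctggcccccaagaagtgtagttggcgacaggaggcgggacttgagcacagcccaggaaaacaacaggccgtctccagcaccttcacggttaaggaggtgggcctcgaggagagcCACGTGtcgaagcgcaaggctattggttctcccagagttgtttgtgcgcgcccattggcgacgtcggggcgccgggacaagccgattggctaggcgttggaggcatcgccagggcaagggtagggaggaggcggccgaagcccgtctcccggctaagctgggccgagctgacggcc
On either strand the 5 letters were found in 20 of the 29 tested genes of the list that have a promoter entry (69.0%), against 2457 of 8145 tested genes of the whole series (30.2%). A gene counted if any of its entries held them, and per entry the shares were 54.8% and 26.2%. The list was chosen to include HIF targets, so its higher share says nothing about these arrays. Slc2a3 has no entry in the table. A match is a stretch of letters and not a measured HIF site, and Pdk2, which fell, holds it as well as the 3 that rose.

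Among the glucose carriers, the basal carrier Slc2a1 (GLUT1) was high on every array and was called in no comparison that kept all arrays. It read 13.29, 12.55, 12.80 and 12.75 in YFP-positive and 13.23, 12.32, 12.22 and 12.52 in YFP-negative cells, and 13.29, 12.71 and 12.39 in CXCR5lo PD-1lo cells. Bcl6yfp/+ cells had 12.49, 13.30 and 13.30 and Bcl6+/+ cells 13.08, 13.31 and 13.38, against 12.30 and 12.35 in naive cells. The naive values lay within the range of the YFP-negative arrays, and the difference was 0.52 ± 0.33 in YFP-positive cells (SE, adjusted p = 0.255) and 0.82 ± 0.31 in the Bcl6 genotypes (adjusted p = 0.0514, limma). The second difference was called without Bcl6yfp/+ 1 (0.96, adjusted p = 0.0121) or Bcl6+/+ 1 (0.87, adjusted p = 0.0474).

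The high-affinity carrier Slc2a3 (GLUT3) had its highest group mean in naive cells, where Slc2a1 had its lowest. It was 11.45, 11.11, 10.74 and 10.33 in YFP-positive, 11.20, 10.66, 10.73 and 10.39 in YFP-negative and 12.01, 11.49 and 11.24 in CXCR5lo PD-1lo cells. Bcl6yfp/+ cells had 9.95, 11.16 and 11.16 and Bcl6+/+ cells 10.76, 11.35 and 11.27, against 12.31 and 11.80 in naive cells. Both naive arrays lay above every CXCR5hi PD-1hi array, while CXCR5lo PD-1lo 1 lay between the naive arrays. Slc2a3 fell by 1.15 (SE 0.38, adjusted p = 0.0342) in YFP-positive, by 1.31 (SE 0.38, adjusted p = 0.0229) in YFP-negative and by 1.11 (SE 0.36, adjusted p = 0.0272, limma) in the cells of both Bcl6 genotypes. In CXCR5lo PD-1lo cells the difference was -0.47 ± 0.40 (adjusted p = 0.44, limma). These calls rested on few arrays. Without naive 1 the adjusted p was 0.227, 0.178 and 0.212 in the YFP-positive, YFP-negative and Bcl6 comparisons, and without naive 2 it was 0.0732, 0.0584 and 0.0652. The YFP-positive call was also lost without YFP-positive 3 (0.0698) and without YFP-positive 4 (0.0719). The Slc2a3 probe set is of a kind (s_at) that may read similar transcripts.

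Of the hexokinases, which phosphorylate glucose on entry, the inducible form Hk2 (chr6:82725025-82774454, GRCm38.p6) was near the floor in naive cells and raised in every other group. Its values were 9.21, 8.73, 9.15 and 8.28 in YFP-positive, 4.86, 7.40, 7.29 and 6.23 in YFP-negative and 9.99, 8.33 and 7.99 in CXCR5lo PD-1lo cells. They were 5.48, 7.84 and 7.78 in Bcl6yfp/+, 8.80, 7.73 and 8.37 in Bcl6+/+ and 2.70 and 2.71 in naive cells. The naive arrays overlapped with no other group. Hk2 rose by 6.14 ± 0.74 in YFP-positive (SE, adjusted p = 9.86e-06), 3.74 ± 0.74 in YFP-negative (adjusted p = 0.00151), 6.07 ± 0.78 in CXCR5lo PD-1lo (adjusted p = 4.87e-05) and 4.96 ± 0.70 in the Bcl6 genotypes (adjusted p = 4.97e-05, limma). Under a block for the normalization set the last was 2.89 and was not called (adjusted p = 0.154). Within set 4 it stood 5.58 above naive 1 in YFP-positive 4 and 3.53 above it in YFP-negative 4, and within set 5 Bcl6yfp/+ 1 stood 2.77 above naive 2. The constitutive form Hk1 differed less. It was 11.38, 10.72, 11.32 and 11.003 in YFP-positive, 11.15, 10.88, 10.93 and 10.74 in YFP-negative, 10.96, 10.47 and 10.61 in CXCR5lo PD-1lo, 10.82, 11.27 and 11.38 in Bcl6yfp/+, 12.14, 11.17 and 11.31 in Bcl6+/+ and 9.94 and 10.18 in naive cells. Naive cells were lowest, and Hk1 rose by 1.05 ± 0.29 in YFP-positive (adjusted p = 0.0115), 0.86 ± 0.29 in YFP-negative (adjusted p = 0.0413) and 1.29 ± 0.27 in the Bcl6 genotypes (adjusted p = 0.00181, limma). Without naive 1 the adjusted p was 0.096 in YFP-positive cells and 0.205 in YFP-negative cells. In YFP-negative cells it was also lost without naive 2 (0.123), YFP-negative 1 (0.0956), 2 (0.0685) or 3 (0.0711).

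Phosphofructokinase catalyses the committed step, and its 3 isoform genes behaved differently. Pfkp, the platelet form, rose in every group. It was 13.53, 13.47, 13.68 and 13.56 in YFP-positive, 13.55, 13.53, 13.63 and 13.35 in YFP-negative, 12.98, 12.78 and 12.99 in CXCR5lo PD-1lo, 13.34, 13.38 and 13.54 in Bcl6yfp/+, 13.90, 13.43 and 13.63 in Bcl6+/+ and 12.07 and 12.24 in naive cells. The CXCR5lo PD-1lo arrays lay between the CXCR5hi PD-1hi arrays and the naive arrays without overlap. The rises were 1.40 ± 0.19 (adjusted p = 2.64e-05), 1.36 ± 0.19 (adjusted p = 4.36e-05), 0.76 ± 0.20 (adjusted p = 0.0178) and 1.38 ± 0.17 (adjusted p = 1.6e-05, limma) in YFP-positive, YFP-negative, CXCR5lo PD-1lo and the Bcl6 genotypes. The CXCR5lo PD-1lo call was lost without CXCR5lo PD-1lo 1 (adjusted p = 0.0658), naive 1 (0.119) or naive 2 (0.0673). A second Pfkp probe set differed by -0.32 in the Bcl6 genotypes, and with the median over probe sets their difference was 0.82 and was not called (adjusted p = 0.118). Pfkl, the liver form, was 10.44, 10.53, 10.86 and 10.89 in YFP-positive, 10.25, 9.98, 9.97 and 10.11 in YFP-negative, 9.93, 9.35 and 9.61 in CXCR5lo PD-1lo, 10.19, 10.11 and 10.21 in Bcl6yfp/+, 10.77, 10.14 and 10.36 in Bcl6+/+ and 8.87 and 9.44 in naive cells. Naive 2 overlapped with the CXCR5lo PD-1lo arrays and naive 1 lay below them all. Pfkl rose by 1.52 ± 0.24 in YFP-positive cells (adjusted p = 0.00017), 0.92 ± 0.24 in YFP-negative cells (adjusted p = 0.0115) and 1.14 ± 0.23 in the Bcl6 genotypes (adjusted p = 0.00126, limma), and the calls in YFP-negative and Bcl6-genotype cells were lost without naive 1 (0.172 and 0.0516). Pfkm, the muscle form, was 7.52 to 8.59 over all groups and was called in no comparison. Pfkfb3, whose enzyme makes the fructose 2,6-bisphosphate that stimulates phosphofructokinase, rose by 1.34 ± 0.26 in YFP-positive (adjusted p = 0.00109), 1.15 ± 0.26 in YFP-negative (adjusted p = 0.0044, lost without naive 2 at 0.0655) and 1.31 ± 0.25 in Bcl6-genotype cells (adjusted p = 0.000771, limma). Its relative Pfkfb4 varied from 3.16 to 6.71 and was not called.

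Of the enzymes of the lower pathway, Aldoc (chr11:78323073-78327781, GRCm38.p6), an aldolase best known from brain, followed the CXCR5hi PD-1hi gate. It was 9.71, 9.98, 9.70 and 9.65 in YFP-positive, 6.80, 8.32, 8.28 and 8.42 in YFP-negative and 4.002, 2.81 and 4.35 in CXCR5lo PD-1lo cells. It was 8.06, 9.13 and 9.13 in Bcl6yfp/+, 7.97, 9.13 and 9.40 in Bcl6+/+ and 4.88 and 2.51 in naive cells. The CXCR5lo PD-1lo arrays fell within the range of the naive arrays and all CXCR5hi PD-1hi arrays lay above both. Aldoc rose by 6.06 ± 0.62 in YFP-positive (adjusted p = 1.65e-06), 4.26 ± 0.62 in YFP-negative (adjusted p = 9.34e-05) and 5.11 ± 0.59 in the Bcl6 genotypes (adjusted p = 5.8e-06), against 0.02 ± 0.66 in CXCR5lo PD-1lo cells (adjusted p = 0.984, limma). A second Aldoc probe set, which did not pass the filter, differed by 0.19 between YFP-positive and CXCR5lo PD-1lo cells, where the one used differed by 6.04. Tpi1, triosephosphate isomerase (chr6:124810586-124814158), was graded over the groups. It was 13.33, 12.84, 13.37 and 13.23 in YFP-positive, 12.25, 12.15, 12.26 and 12.35 in YFP-negative and 12.23, 10.96 and 10.75 in CXCR5lo PD-1lo cells. It was 12.02, 12.76 and 12.76 in Bcl6yfp/+, 12.21, 12.88 and 12.96 in Bcl6+/+ and 9.87 and 9.53 in naive cells. Naive arrays were lowest throughout, and the rises were 3.49 ± 0.36 (adjusted p = 1.53e-06), 2.55 ± 0.36 (adjusted p = 5.83e-05), 1.61 ± 0.38 (adjusted p = 0.00986) and 2.90 ± 0.34 (adjusted p = 6.35e-06, limma) in YFP-positive, YFP-negative, CXCR5lo PD-1lo and the Bcl6 genotypes. The CXCR5lo PD-1lo call was lost without naive 2 (1.44, adjusted p = 0.114).

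Pgam1, phosphoglycerate mutase, rose by 1.97 ± 0.34, 1.65 ± 0.34, 1.24 ± 0.36 and 1.97 ± 0.32 in YFP-positive, YFP-negative, CXCR5lo PD-1lo and the Bcl6 genotypes (adjusted p = 0.000409, 0.00224, 0.0363 and 0.000238, limma). It was 13.88, 13.61, 13.48 and 13.32 in YFP-positive, 13.55, 13.31, 13.17 and 12.96 in YFP-negative, 13.42, 12.77 and 12.32 in CXCR5lo PD-1lo, 12.62, 13.79 and 13.82 in Bcl6yfp/+, 13.57, 13.82 and 13.79 in Bcl6+/+ and 11.80 and 11.40 in naive cells, which overlapped with no other array. Pkm, the pyruvate kinase of dividing cells and muscle, was 14.19, 14.14, 14.14 and 13.98 in YFP-positive, 13.66, 13.76, 13.70 and 13.58 in YFP-negative, 13.86, 13.66 and 13.48 in CXCR5lo PD-1lo, 13.35, 14.16 and 14.17 in Bcl6yfp/+, 13.97, 14.16 and 14.15 in Bcl6+/+ and 13.06 and 12.65 in naive cells. Naive cells were again lowest, and Pkm rose by 1.26 ± 0.23, 0.82 ± 0.23, 0.82 ± 0.25 and 1.14 ± 0.22 in the same order (adjusted p = 0.000705, 0.0188, 0.0407 and 0.000961). In CXCR5lo PD-1lo cells the calls of both genes were lost without CXCR5lo PD-1lo 1 (Pgam1 0.157, Pkm 0.149), CXCR5lo PD-1lo 2 (0.0695, 0.086), naive 1 (0.0773, 0.0595) or naive 2 (0.273, 0.342). In YFP-negative cells they were lost without naive 2 (Pgam1 0.0503, Pkm 0.254). Pgk1, phosphoglycerate kinase, rose in YFP-positive cells (1.05 ± 0.24, adjusted p = 0.0037) and the Bcl6 genotypes (1.12 ± 0.23, adjusted p = 0.00143), as did Aldoa, the main aldolase (0.91 ± 0.23, adjusted p = 0.00715, and 0.82 ± 0.22, adjusted p = 0.00866, limma). With the normalization set as a block Pgk1 (0.49, adjusted p = 0.114) and Aldoa (0.22, 0.284) were not called in the Bcl6 genotypes. Both Aldoa calls were lost without naive 2 (0.0595 and 0.0726), the second also without naive 1 (0.0614), and its probe set (x_at) may read similar transcripts.

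Eno3, the muscle form of enolase, moved the other way. It was 7.80, 8.33, 7.97 and 7.52 in YFP-positive, 8.99, 8.89, 8.34 and 8.23 in YFP-negative and 9.44, 10.15 and 10.11 in CXCR5lo PD-1lo cells. It was 8.44, 8.27 and 8.67 in Bcl6yfp/+, 9.74, 8.60 and 8.92 in Bcl6+/+ and 10.28 and 10.05 in naive cells. The naive and CXCR5lo PD-1lo arrays overlapped and the YFP-positive arrays were lowest apart from single overlaps with YFP-negative and Bcl6yfp/+ arrays. Eno3 fell by 2.26 (SE 0.33, adjusted p = 8.87e-05) in YFP-positive, by 1.55 (SE 0.33, adjusted p = 0.00301) in YFP-negative and by 1.39 (SE 0.32, adjusted p = 0.00327, limma) in the Bcl6 genotypes, the last lost without naive 1 (adjusted p = 0.0503). Gapdh and Eno1, the main forms of 2 neighbouring steps, have no probe set of their own here. The 3′ control probe set for Gapdh, which is used only to judge RNA quality, read 14.97 to 15.19 in YFP-positive, 14.82 to 15.06 in YFP-negative, 14.70 to 14.95 in CXCR5lo PD-1lo, 14.72 to 15.16 in Bcl6yfp/+, 15.12 to 15.25 in Bcl6+/+ and 14.21 and 14.19 in naive cells, and it was not tested.

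At the end of the pathway, the dehydrogenase gene Ldha, whose subunit favours lactate formation, was high everywhere. It was 14.85, 14.68, 14.64 and 14.17 in YFP-positive, 13.94, 14.56, 14.44 and 13.79 in YFP-negative, 14.90, 14.63 and 14.39 in CXCR5lo PD-1lo, 14.21, 14.80 and 14.86 in Bcl6yfp/+, 14.72, 14.80 and 14.80 in Bcl6+/+ and 13.95 and 13.97 in naive cells. YFP-negative 1 and 4 were as low as the naive arrays. Ldha rose in the Bcl6 genotypes alone of the 4 comparisons (0.74 ± 0.25, adjusted p = 0.0353), and the call was lost without Bcl6+/+ 2 (0.0535) or 3 (0.0577), Bcl6yfp/+ 2 (0.0664) or 3 (0.0673), naive 1 (0.149) or naive 2 (0.157, limma). In YFP-positive cells the difference was 0.62 ± 0.27 (adjusted p = 0.0949), and it was called without YFP-positive 4 (0.76, adjusted p = 0.0446). Its partner Ldhb was 11.04, 10.92, 11.14 and 11.35 in YFP-positive, 10.57, 10.34, 10.40 and 10.80 in YFP-negative, 10.06, 10.16 and 10.51 in CXCR5lo PD-1lo, 10.28, 10.68 and 10.73 in Bcl6yfp/+, 12.59, 11.001 and 10.72 in Bcl6+/+ and 11.23 and 11.17 in naive cells. Bcl6+/+ 1, the array with the largest 3′ minus 5′ difference, stood above all others, and Ldhb was called in no comparison. The lactate exporter gene Slc16a3 (MCT4) ran from the floor to well above it. It was 7.26, 3.88, 8.18 and 8.55 in YFP-positive, 4.03, 2.65, 4.95 and 6.07 in YFP-negative, 4.85, 2.60 and 3.81 in CXCR5lo PD-1lo, 3.79, 4.29 and 3.53 in Bcl6yfp/+, 6.48, 4.63 and 3.99 in Bcl6+/+ and 3.35 and 2.43 in naive cells. YFP-positive 1, 3 and 4 exceeded every other array and YFP-positive 2 did not. Slc16a3 rose by 4.08 ± 1.12 in YFP-positive cells (adjusted p = 0.0121), a call lost without naive 2 (0.123, limma), and was not called in the other groups. Slc16a1 (MCT1), which carries lactate in both directions, was 9.94 to 12.16 over all arrays and was not called.

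Of the kinases that restrain pyruvate dehydrogenase, Pdk1 and Pdk2 were highest in naive cells. Pdk1 was 13.15, 12.95, 12.51 and 12.60 in YFP-positive, 13.11, 12.91, 12.52 and 12.57 in YFP-negative, 13.40, 13.42 and 12.93 in CXCR5lo PD-1lo, 12.07, 13.02 and 13.15 in Bcl6yfp/+, 12.58, 13.04 and 12.92 in Bcl6+/+ and 14.25 and 13.27 in naive cells. Naive 1 stood alone, and naive 2 lay among the CXCR5lo PD-1lo arrays. Pdk1 fell by 0.96 (SE 0.34, adjusted p = 0.0426) in YFP-positive, by 0.99 (SE 0.34, adjusted p = 0.0479) in YFP-negative and by 0.97 (SE 0.32, adjusted p = 0.0286, limma) in the Bcl6 genotypes. Without naive 1 these values were -0.47, -0.50 and -0.48, and none was called (adjusted p = 0.431, 0.433 and 0.378). The first was lost also without YFP-positive 2 (0.0592), 3 (0.0944) or 4 (0.0725) and the second without YFP-negative 2 (0.0683), 3 (0.102) or 4 (0.0853). Pdk2 was 2.30, 2.19, 2.18 and 5.72 in YFP-positive, 2.63, 2.19, 2.87 and 5.74 in YFP-negative, 2.38, 2.68 and 4.48 in CXCR5lo PD-1lo, 2.46, 2.28 and 2.24 in Bcl6yfp/+, 3.52, 2.27 and 2.28 in Bcl6+/+ and 7.06 and 6.28 in naive cells. Most antigen-experienced arrays were near the floor, and the YFP-sorted arrays nearest to the naive ones were those normalized with naive 1. Pdk2 fell by 3.57 (SE 0.999, adjusted p = 0.0132), 3.31 (SE 0.999, adjusted p = 0.0264), 3.49 (SE 1.05, adjusted p = 0.0414) and 4.17 (SE 0.94, adjusted p = 0.00318, limma) in YFP-positive, YFP-negative, CXCR5lo PD-1lo and the Bcl6 genotypes. With the normalization set as a block the differences were -1.46, -1.20, -0.55 and -3.82, and only the last was called (adjusted p = 0.0566, 0.115, 0.573 and 0.003). Within set 4 the difference from naive 1 was -1.34 in YFP-positive 4 and -1.32 in YFP-negative 4, and within set 5 it was -3.83 in Bcl6yfp/+ 1 against naive 2. All 4 calls were also lost without naive 1 (adjusted p = 0.102, 0.155, 0.175 and 0.0517), and the first 3 without naive 2 (0.0545, 0.0933 and 0.134). The YFP-negative call was lost too without YFP-negative 1 (0.0628), 2 (0.0676) or 3 (0.0553), and the CXCR5lo PD-1lo call without CXCR5lo PD-1lo 1 (0.145) or 2 (0.104). Of 9 other tested genes of the pyruvate dehydrogenase complex and its regulators, 2 rose and 1 fell in YFP-positive, 1 rose in YFP-negative, 1 rose in CXCR5lo PD-1lo and 1 rose and 1 fell in Bcl6-genotype cells against naive. Of all genes 28.8%, 21.1%, 11.9% and 34.3% were called in that order. The kinase gene Pdk3 was the 1 of the 9 that rose in each. It was 10.78, 10.72, 10.69 and 10.15 in YFP-positive, 9.91, 10.35, 10.17 and 9.68 in YFP-negative, 9.88, 9.61 and 9.22 in CXCR5lo PD-1lo, 9.78, 10.19 and 10.18 in Bcl6yfp/+, 10.69, 10.09 and 10.08 in Bcl6+/+ and 7.75 and 8.40 in naive cells, and rose in each comparison with naive (2.51, 1.95, 1.49 and 2.09). The CXCR5lo PD-1lo call of Pdk3 was lost without naive 1 (1.17, adjusted p = 0.0742) and with quantile normalization (0.91, adjusted p = 0.0921).

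Of the genes of oxygen sensing, Egln3 (chr12:54178981-54203874, GRCm38.p6), itself a HIF target, had the largest rise of the list. It was 12.37, 12.32, 12.55 and 12.88 in YFP-positive, 12.30, 12.20, 12.30 and 12.50 in YFP-negative and 10.23, 9.80 and 9.54 in CXCR5lo PD-1lo cells. It was 11.56, 12.18 and 12.37 in Bcl6yfp/+, 12.78, 12.06 and 12.47 in Bcl6+/+ and 3.34 and 2.97 in naive cells. The naive arrays were near the floor, the CXCR5lo PD-1lo arrays stood far above them and the CXCR5hi PD-1hi arrays above those, with no overlap between these 3 levels. Egln3 rose by 9.37 ± 0.28 in YFP-positive (adjusted p = 6.13e-13), 9.17 ± 0.28 in YFP-negative (adjusted p = 8.69e-13), 6.70 ± 0.29 in CXCR5lo PD-1lo (adjusted p = 1.24e-10) and 9.08 ± 0.26 in the Bcl6 genotypes (adjusted p = 3.19e-13, limma). Within set 4 the differences from naive 1 were 9.54 and 9.16 in YFP-positive 4 and YFP-negative 4, and Bcl6yfp/+ 1 stood 8.59 above naive 2 within set 5.

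Hif1a, the oxygen-regulated subunit, was 13.91, 14.15, 13.71 and 14.07 in YFP-positive, 13.96, 13.97, 13.53 and 13.95 in YFP-negative, 13.39, 13.54 and 12.76 in CXCR5lo PD-1lo, 13.54, 14.32 and 14.32 in Bcl6yfp/+, 13.85, 14.38 and 14.32 in Bcl6+/+ and 12.84 and 12.72 in naive cells. CXCR5lo PD-1lo 3 lay between the naive arrays and every CXCR5hi PD-1hi array lay above them. Hif1a rose by 1.18 ± 0.28 in YFP-positive (adjusted p = 0.0048), 1.07 ± 0.28 in YFP-negative (adjusted p = 0.0114) and 1.35 ± 0.26 in the Bcl6 genotypes (adjusted p = 0.00113), against 0.45 ± 0.30 in CXCR5lo PD-1lo cells (adjusted p = 0.309, limma). Without naive 2 the first was lost (0.054), and the second was lost without naive 1 (0.0548) or naive 2 (0.105). With the median over probe sets the rises were 3.68, 3.06 and 3.06 in YFP-positive, YFP-negative and Bcl6-genotype cells, and with quantile normalization 0.78, 0.68 and 0.75, all called. Its partner Arnt was 10.82 to 12.35 and was not called. Egln1, the main prolyl hydroxylase, rose by 0.91 ± 0.22 in YFP-positive (adjusted p = 0.00537), 0.72 ± 0.22 in YFP-negative (adjusted p = 0.0278) and 0.80 ± 0.21 in Bcl6-genotype cells (adjusted p = 0.00767, limma), and all 3 calls were lost without naive 1 (0.0718, 0.193 and 0.103). The YFP-negative call was also lost without naive 2 (0.0696), YFP-negative 1 (0.0737) or YFP-negative 2 (0.0552). Of the HIF targets, P4ha1, a collagen prolyl hydroxylase subunit, rose in YFP-positive cells (1.25 ± 0.33, adjusted p = 0.0089, lost without naive 2 at 0.135), while Ero1a (11.19 to 12.27), the oxidase of disulphide formation, and Tpst1 (2.08 to 7.64), a protein tyrosine sulphotransferase, were not called. Bnip3, a mitophagy receptor, is described below, since it was called against CXCR5lo PD-1lo cells but in none of the 4 comparisons with naive cells counted above. Its naive arrays lay between the CXCR5lo PD-1lo and the CXCR5hi PD-1hi arrays, with no overlap.

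The remaining changes with the processing concern the comparisons with naive cells. With quantile normalization, which takes away the shift of all genes, the rises of Hk1 in YFP-positive, YFP-negative and Bcl6-genotype cells (0.53, 0.35 and 0.72) were not called. The same held for Pfkl in YFP-negative and Bcl6-genotype cells (0.42 and 0.69), Egln1 in YFP-negative and Bcl6-genotype cells (0.29 and 0.22), Aldoa (0.29) and Ldha (0.25) in the Bcl6 genotypes, P4ha1 in YFP-positive cells (0.72), and Pfkp (0.26) and Pkm (0.36) in CXCR5lo PD-1lo cells. Other rises stayed called but were smaller by over 1.5 times. They were those of Pfkfb3 (0.82, 0.64 and 0.72 in YFP-positive, YFP-negative and Bcl6-genotype cells), Pgk1 (0.67 and 0.55 in YFP-positive and Bcl6-genotype cells), Aldoa (0.55) and Egln1 (0.47) in YFP-positive cells, Pkm in YFP-negative (0.42) and Bcl6-genotype cells (0.56), Pgam1 (0.73) and Tpi1 (1.01) in CXCR5lo PD-1lo cells and Pfkp (0.77) in the Bcl6 genotypes. The fall of Pdk1 in the Bcl6 genotypes was then larger (-1.46).

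With the normalization set as a block, Hk1 (0.60), Pfkl (0.80), Pfkfb3 (0.71), Ldha (0.22) and Egln1 (0.13) were not called in the Bcl6 genotypes, nor was Pgam1 in CXCR5lo PD-1lo cells (0.68). Hif1a (0.84), Pgam1 (1.22) and Pkm (0.70) in the Bcl6 genotypes and Pkm in YFP-negative (0.50) and CXCR5lo PD-1lo cells (0.46) stayed called with smaller rises. The falls of Slc2a3 (-1.87, -2.03 and -1.77 in YFP-positive, YFP-negative and Bcl6-genotype cells) and of Pdk1 (-1.65 and -1.68 in YFP-positive and YFP-negative cells) were larger under that block. Without the filter on low values the calls of Slc2a3 in YFP-positive cells, Pdk1 in both YFP groups, Pdk2 in YFP-negative and CXCR5lo PD-1lo cells and Pgam1 in CXCR5lo PD-1lo cells were lost (adjusted p = 0.0533 to 0.0877). With the median over probe sets Pfkp in CXCR5lo PD-1lo cells (1.29, adjusted p = 0.0612), Pfkl and Pdk1 in YFP-negative cells (0.0766 and 0.0747) and Slc2a3 in YFP-positive cells (0.0502) were lost, and Pfkp rose by 2.89 and 2.46 in YFP-positive and YFP-negative cells. With day as a covariate Hk1, Pdk1 and Slc2a3 in YFP-negative cells (0.0702, 0.0774 and 0.0523) and Pdk1 in YFP-positive cells (0.054) were lost.

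**Figure D2:**
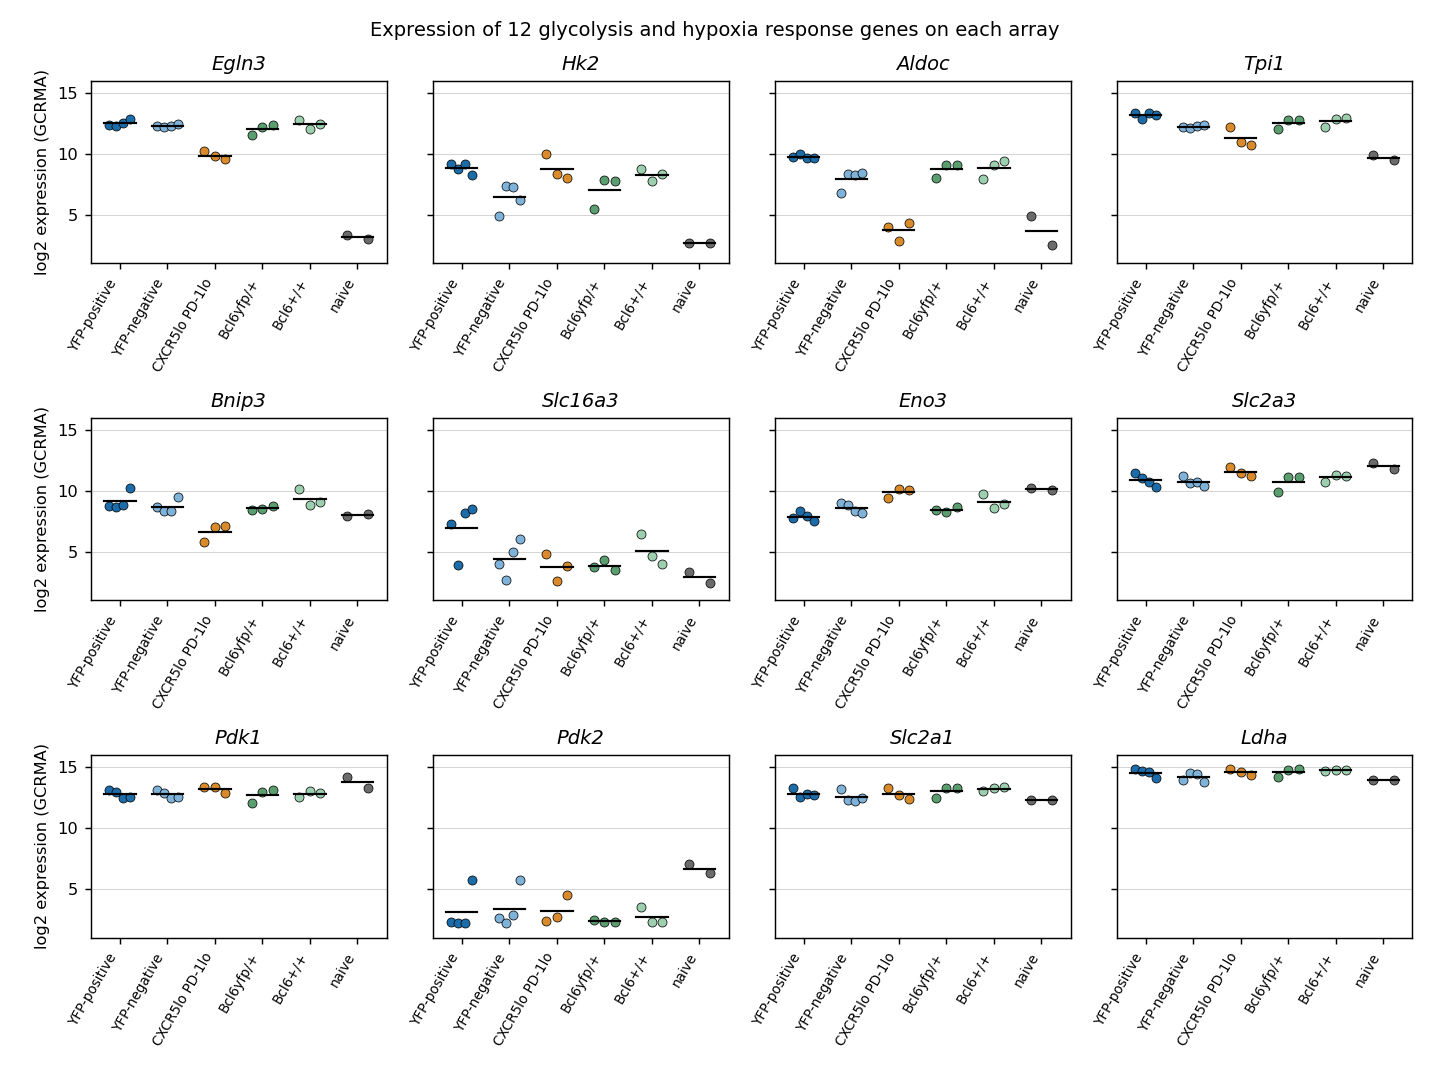
Log2 expression on every array (points, vertical axis) with the group mean (line) for 12 genes, in YFP-positive, YFP-negative, CXCR5lo PD-1lo, Bcl6yfp/+, Bcl6+/+ and naive cells from left to right. Egln3 and Aldoc are high in the CXCR5hi PD-1hi groups, Hk2 is at 2.70 and 2.71 in naive cells, and Slc2a3, Eno3, Pdk1 and Pdk2 have their highest group mean in naive cells.

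The second question was how CXCR5hi PD-1hi cells differ from CXCR5lo PD-1lo cells of immunized mice, both being antigen-experienced. In YFP-positive cells 8 of the 30 genes rose and 1 fell, while of all tested genes 10.6% were called, 5.17% higher and 5.39% lower. In YFP-negative cells 4 rose and 2 fell, while 6.53% of all genes were called, 3.13% higher and 3.39% lower. For 12 of the 30 genes every YFP-positive array lay above every CXCR5lo PD-1lo array, and for 1 every one lay below, against 8.75% and 14.2% of all genes. The same counts were 7 and 3 in YFP-negative cells, against 7.48% and 11.2% of all genes. The median log2 difference was 0.44 over the 30 genes and -0.07 over all genes in YFP-positive cells, and 0.22 and -0.09 in YFP-negative cells. Both comparisons use the same 3 CXCR5lo PD-1lo arrays. Without CXCR5lo PD-1lo 2 the YFP-negative count was 3, with 414 of the 9928 genes called, and with quantile normalization the YFP-positive count was 15, with 1953 called. Of 40 cell cycle genes, 10 rose and 1 fell in YFP-positive cells and 0 were called in YFP-negative cells, and the part of cell division was not tested. Jchain was 7.72 or more on all CXCR5lo PD-1lo arrays, and of the other groups only YFP-positive 1 (8.45) and YFP-negative 1 (12.42) reached that level. On the CXCR5lo PD-1lo arrays Sdc1, of the same marker list, was 2.20, 2.25 and 2.61, and Prdm1 8.12, 5.48 and 4.24. Xbp1 was 10.14 to 11.15 there and Irf4 13.70 to 14.04. The part of such transcripts was not tested either.

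**Figure D3:**
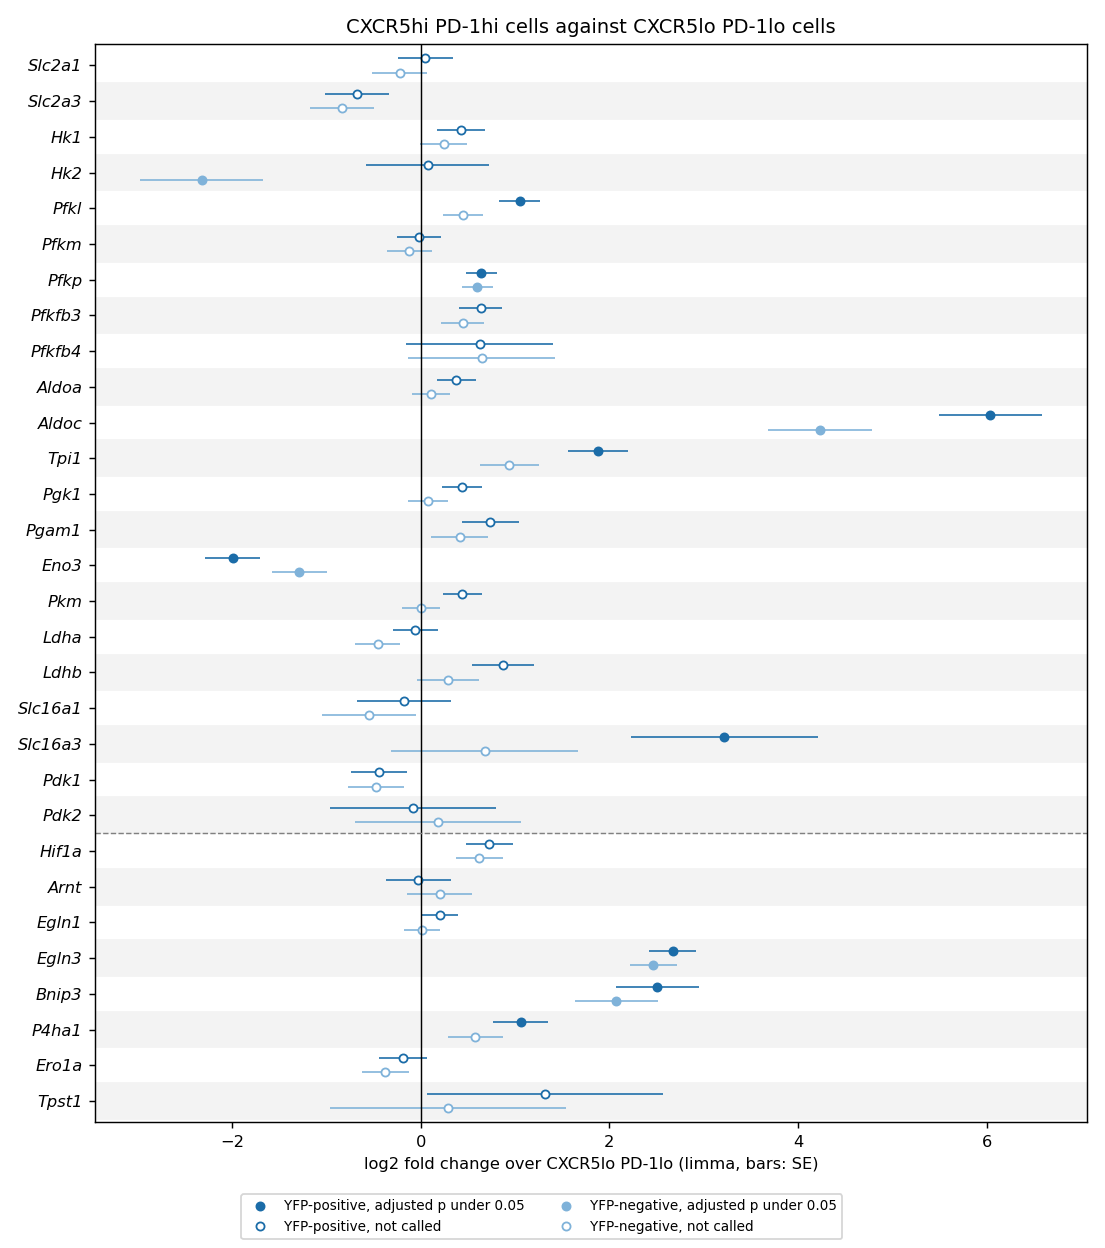
Log2 fold change against CXCR5lo PD-1lo cells (horizontal axis, bars are ± 1 SE of the limma fit) for the 30 tested genes in YFP-positive and YFP-negative cells, with filled points for genes called at adjusted p under 0.05. Aldoc (6.04 and 4.24) and Egln3 (2.67 and 2.47) lie to the right in both groups, Eno3 (-1.996 and -1.29) to the left in both, and Hk2 near 0 in YFP-positive (0.07) but at -2.32 in YFP-negative cells.

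Aldoc, Egln3 and Bnip3 rose in both groups, and every array of each YFP group lay above every CXCR5lo PD-1lo array for all 3. Aldoc rose by 6.04 ± 0.55 in YFP-positive (SE, adjusted p = 1.18e-06) and 4.24 ± 0.55 in YFP-negative cells (adjusted p = 7.93e-05), and Egln3 by 2.67 ± 0.25 (adjusted p = 1.34e-06) and 2.47 ± 0.25 (adjusted p = 4.3e-06, limma). Bnip3 was 8.78, 8.67, 8.89 and 10.26 in YFP-positive and 8.65, 8.36, 8.34 and 9.50 in YFP-negative cells, against 5.77, 7.01 and 7.14 in CXCR5lo PD-1lo cells. It was 8.48, 8.54 and 8.76 in Bcl6yfp/+, 10.20, 8.83 and 9.11 in Bcl6+/+ and 7.93 and 8.10 in naive cells. CXCR5lo PD-1lo cells were the lowest group, below naive cells, and YFP-positive 4, Bcl6+/+ 1 and YFP-negative 4, all from day 10, were the highest arrays, while the day 10 arrays YFP-negative 1 and Bcl6+/+ 2 lay among those of day 7. Bnip3 rose by 2.51 ± 0.44 in YFP-positive (adjusted p = 0.00102) and 2.07 ± 0.44 in YFP-negative cells (adjusted p = 0.00668, limma). Pfkp rose by 0.64 ± 0.16 (adjusted p = 0.0168) and 0.60 ± 0.16 (adjusted p = 0.036, limma), where the first call was lost without CXCR5lo PD-1lo 2 (0.1) or YFP-positive 3 (0.0566). The second was lost without any of the 3 CXCR5lo PD-1lo arrays (0.0789, 0.172 and 0.0839) or YFP-negative 1, 2 or 3 (0.0846, 0.0729 and 0.1), with quantile normalization (0.0594), with day as a covariate (0.0727) and with the median over probe sets (0.0714). With that median the differences were 1.60 and 1.17. Eno3 fell by 1.996 (SE 0.30, adjusted p = 0.000221) in YFP-positive and by 1.29 (SE 0.30, adjusted p = 0.0123) in YFP-negative cells, the second lost without CXCR5lo PD-1lo 2 (0.0755) or 3 (0.0679).

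A further 4 genes were called in YFP-positive and not in YFP-negative cells, which does not show a difference between them, since 0 of the 30 genes were called between the YFP groups. Tpi1 rose by 1.88 ± 0.31 (adjusted p = 0.000722, limma), with all 4 YFP-positive arrays above all CXCR5lo PD-1lo arrays. In YFP-negative cells it stood 0.94 ± 0.31 higher (adjusted p = 0.0988), was called without CXCR5lo PD-1lo 1 (1.39, adjusted p = 0.0044) and was called with the replicate number as a block (adjusted p = 0.0385). Pfkl rose by 1.05 ± 0.21 (adjusted p = 0.00359), again without overlap, although a second Pfkl probe set differed by -0.30 and the call was lost with the median over probe sets (0.90, adjusted p = 0.0649). P4ha1 was 10.85, 10.93, 10.85 and 11.26 in YFP-positive and 10.80, 10.18, 10.32 and 10.67 in YFP-negative cells, against 9.86, 9.81 and 10.07 in CXCR5lo PD-1lo cells. No array of either YFP group overlapped with CXCR5lo PD-1lo cells. P4ha1 was 9.47, 10.67 and 10.68 in Bcl6yfp/+, 9.95, 10.65 and 10.56 in Bcl6+/+ and 9.97 and 9.47 in naive cells. It rose by 1.06 ± 0.29 in YFP-positive cells (adjusted p = 0.0254), a call lost without CXCR5lo PD-1lo 1 (0.0665), 2 (0.106) or 3 (0.0556) or YFP-positive 4 (0.0622). Slc16a3 rose by 3.22 ± 0.99 (adjusted p = 0.0479, limma) although YFP-positive 2 (3.88) lay within the CXCR5lo PD-1lo range, and the call was lost without CXCR5lo PD-1lo 2 (0.22) or 3 (0.128) or YFP-positive 1 (0.0972), 3 (0.135) or 4 (0.122), without the filter (0.124) and with day as a covariate (0.0591). Hk2 was 0.07 ± 0.65 from CXCR5lo PD-1lo cells in YFP-positive cells (adjusted p = 0.977) and fell by 2.32 (SE 0.65, adjusted p = 0.0412, limma) in YFP-negative cells. That call was lost without CXCR5lo PD-1lo 1 (-1.72, adjusted p = 0.222) or 2 (0.0794), without YFP-negative 1 (-1.79, 0.123) or 4 (0.105), and with the replicate number as a block (-2.19, 0.103). It was lost too without the filter (0.11) and with day as a covariate (-1.82, 0.163). With the replicate block the counts were 13 in YFP-positive cells and 8 in YFP-negative cells, along with 2068 and 1114 of the 9928 genes. Hif1a was then called in both (adjusted p = 0.00369 and 0.0135), Slc2a3 was lower in YFP-negative cells (0.0338), and Tpst1 (0.0127), Pgam1 (0.0171) and Pfkfb3 (0.0217) were called in YFP-positive cells.

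The third question was whether YFP-positive and YFP-negative cells, sorted within the same CXCR5hi PD-1hi gate, differ. At an adjusted p under 0.05 limma called 0 of the 30 genes, beside 0.121% of all genes. At an unadjusted p under 0.05 there were 7 of the 30 genes and 786 of the 9928. These were Slc16a3 (2.54 ± 0.92, adjusted p = 0.318), Hk2 (2.40 ± 0.60, adjusted p = 0.157), Aldoc (1.80 ± 0.51, adjusted p = 0.193), Tpi1 (0.94 ± 0.29, adjusted p = 0.223), Pfkl (0.60 ± 0.20, adjusted p = 0.251), Pkm (0.44 ± 0.19, adjusted p = 0.531) and Eno3 (-0.71 ± 0.27, adjusted p = 0.393). Every YFP-positive array lay above every YFP-negative array for 7 of the 30 genes, namely Hk2, Aldoc, Tpi1, Pfkl, Pkm, Ldhb and P4ha1, and below for 0, against 1.58% and 2.31% of all genes. Hk2 was called when YFP-positive 4 was left out (2.58, adjusted p = 0.0459), as were 307 of the 9928 genes. The median difference was 0.27 over the 30 genes and 0.00 over all genes, and 26 of the 30 lay above 0.

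The arrays of the same replicate number were normalized together and deviated together, so the differences within each of the 4 pairs are given as a description. In every pair 19 of the 30 genes were higher in YFP-positive than in YFP-negative cells, as were 24.3% of all genes, and 3 were lower (Eno3, Pdk2 and Arnt), as were 20.7% of all genes. Over the 4 pairs the difference was 1.33 to 4.35 for Hk2, 1.23 to 2.91 for Aldoc, 1.23 to 3.23 for Slc16a3, 0.69 to 1.11 for Tpi1, 0.47 to 0.75 for Ldhb, 0.38 to 0.53 for Pkm and 0.30 to 0.35 for Pgam1, and -1.19 to -0.37 for Eno3. In pair 1 the YFP-positive array is from day 7 and the YFP-negative array from day 10, and that YFP-negative array has the plasma and myeloid transcripts named above and the lowest Hk2 (4.86) and Aldoc (6.80) of its group. The other 3 pairs differed by 1.33, 1.85 and 2.05 for Hk2 and by 1.66, 1.42 and 1.23 for Aldoc. With the replicate number as a block 0 of the 30 genes were called, along with 74 of the 9928 genes. With the normalization set as a block 12 were called (Aldoa, Aldoc, Eno3, Hk2, Ldhb, P4ha1, Pfkl, Pgk1, Pkm, Slc16a3, Tpi1 and Tpst1), along with 1545 of the 9928 genes. Cell cycle genes lay along the same axis, with 39 of 40 higher in YFP-positive cells, a median of 2.77 and 0 called, and their part was not tested.

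**Figure D4:**
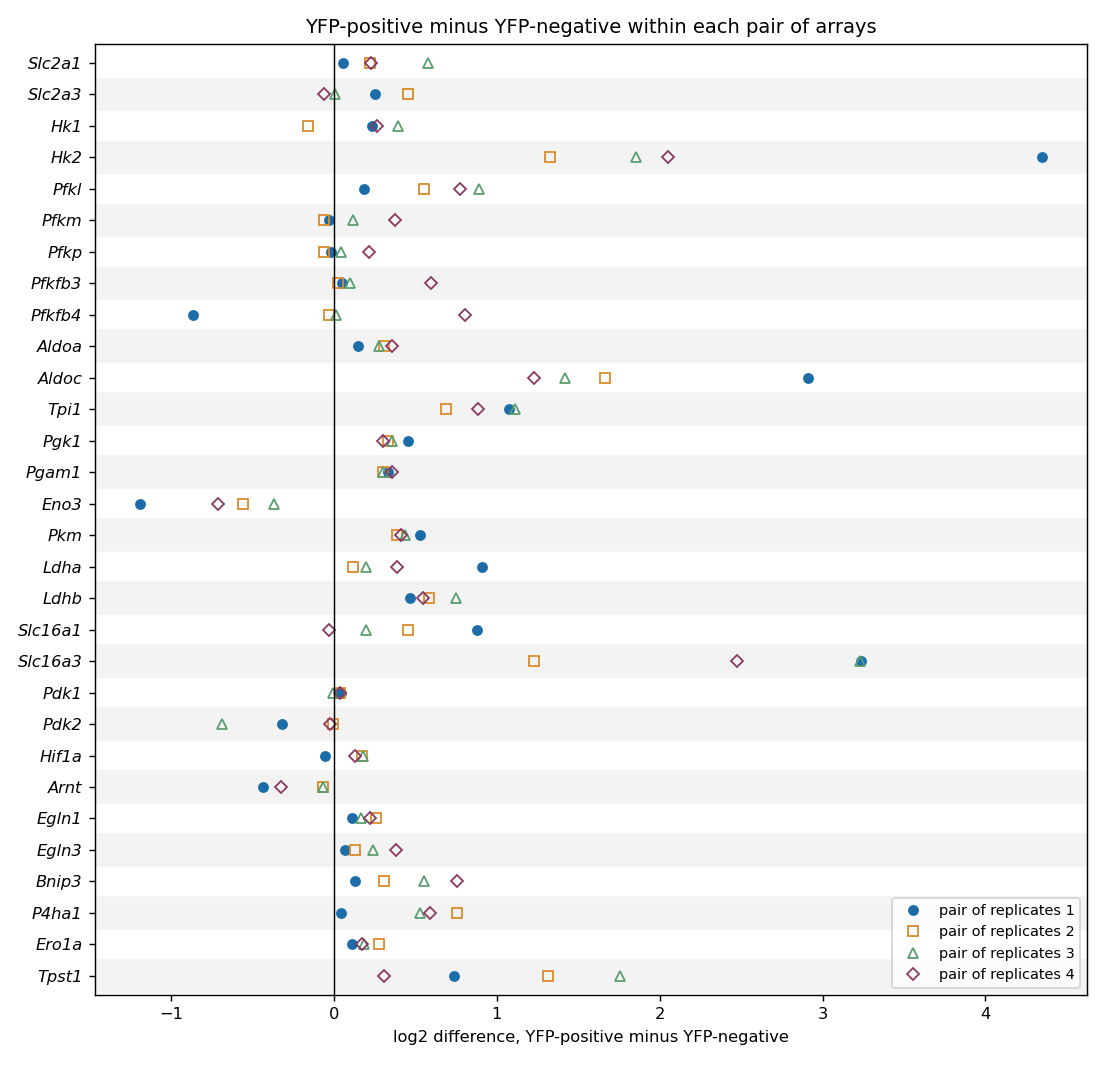
Log2 difference of YFP-positive minus YFP-negative cells within each of the 4 replicate pairs (points) for the 30 tested genes. For 19 genes all 4 points lie above 0, with Hk2 (1.33 to 4.35), Slc16a3 (1.23 to 3.23) and Aldoc (1.23 to 2.91) farthest, and for Eno3, Pdk2 and Arnt all 4 lie below 0.

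The fourth comparison set CXCR5hi PD-1hi cells with 1 reporter allele against those with unmodified Bcl6. Between Bcl6yfp/+ and Bcl6+/+ cells limma called 0 of the 30 genes, beside 0% of all genes. All Bcl6yfp/+ arrays are from day 7, while Bcl6+/+ 1 and 2 are from day 10, so genotype and day cannot be fully told apart. Bcl6+/+ 1 also had the largest 3′ minus 5′ difference of the Gapdh controls (2.34). At an unadjusted p under 0.05 there were 1 of the 30 (Ldhb, -0.88 ± 0.35, adjusted p = 0.868) and 287 of the 9928. All 30 differences were below 0 (-1.27 to -0.03, median -0.23), and 11.3% of all genes lay above 0 (median -0.26). The shift rested on Bcl6yfp/+ 1, without which the median was 0.04 for the 30 genes and -0.001 for all genes. Within set 6, which holds replicates 2 and 3 of both genotypes, 15 of the 30 genes were above 0 and the median was -0.01. Hk2 differed by -1.27 ± 0.70 (adjusted p = 0.868), with the low value of Bcl6yfp/+ 1 (5.48) set against 7.84 and 7.78 on the other 2 arrays. Aldoc (-0.06 ± 0.59), Arnt (-0.09 ± 0.37) and Hif1a (-0.12 ± 0.26) lay within 1 SE of 0.

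Day 10 and day 7 cells occur together in the YFP-positive, YFP-negative and Bcl6+/+ groups, which gave the day effect within groups. Of the 30 genes 0 were called, beside 0.232% of all genes, and at an unadjusted p under 0.05 there were 5 of the 30 and 1010 of the 9928. Pdk2 was 1.94 ± 0.58 higher at day 10 (adjusted p = 0.178), Slc16a3 1.61 ± 0.75 (0.486), Pfkfb4 1.29 ± 0.59 (0.453) and Bnip3 0.87 ± 0.31 (0.266), and Ldha 0.44 lower (-0.44 ± 0.17, adjusted p = 0.357, limma). Pdk2 was called without YFP-negative 1 (2.48, adjusted p = 0.0497). The 2 high day 10 values of Pdk2 came from YFP-positive 4 (5.72) and YFP-negative 4 (5.74), which form set 4 with naive 1, whereas YFP-negative 1 (2.63), Bcl6+/+ 1 (3.52) and Bcl6+/+ 2 (2.27) were at or near the day 7 level. Day and set cannot be told apart for the first pair. The day effect did not pass the test of a difference between the 3 groups for any of the 30 genes (limma F test of the interaction, 0 of the 30 also at an unadjusted p under 0.05), while 11 of all genes passed it.

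Other genes of the same pathways were counted from separate lists. Of 21 further glycolysis and glucose handling genes, 5 rose and 2 fell in YFP-positive, 1 rose and 1 fell in YFP-negative, 3 rose in CXCR5lo PD-1lo and 4 rose and 2 fell in Bcl6-genotype cells against naive cells, beside 28.8%, 21.1%, 11.9% and 34.3% of all genes called in either direction. Against CXCR5lo PD-1lo cells 0 rose and 1 (Txnip) fell in YFP-positive and 0 were called in YFP-negative cells, with medians of -0.08 and -0.15. Txnip, which holds back glucose uptake by GLUT1, was 12.18, 12.29, 11.13 and 11.60 in YFP-positive, 12.95, 12.73, 11.98 and 12.05 in YFP-negative, 13.26, 13.84 and 13.01 in CXCR5lo PD-1lo, 11.997, 12.92 and 12.81 in Bcl6yfp/+, 11.53, 13.18 and 12.98 in Bcl6+/+ and 13.78 and 13.96 in naive cells. The YFP-positive arrays lay below all CXCR5lo PD-1lo and naive arrays, and Txnip fell in them by 1.57 against CXCR5lo PD-1lo (adjusted p = 0.0189) and by 2.07 against naive cells (limma), the first call being lost without YFP-positive 3 (0.0655) or CXCR5lo PD-1lo 2 (0.117). The other genes called in YFP-positive cells against naive were led by Slc2a6 (3.38), a GLUT family carrier, and Pgm1 (1.38), a phosphoglucomutase, both lost without naive 2 (adjusted p = 0.235 and 0.151). Slc2a6 was also lost without the filter (0.0535), and Pgm1 became 0.87 with quantile normalization. Of 8 pentose phosphate genes, 3, 2, 0 and 5 rose in YFP-positive, YFP-negative, CXCR5lo PD-1lo and Bcl6-genotype cells against naive, and 0 fell. Of 14 upstream regulators, 2 rose and 1 fell in YFP-positive, 1 fell in YFP-negative, 0 were called in CXCR5lo PD-1lo and 3 rose and 1 fell in Bcl6-genotype cells against naive. Next to both lists, 22.4%, 16.5%, 10.3% and 28.4% of all genes rose and 6.44%, 4.62%, 1.57% and 5.9% fell in that order. In the comparisons with CXCR5lo PD-1lo cells 0 rose and 1 fell in each YFP group. The gene that fell was Myc throughout. Those that rose were the kinase gene Akt1 (1.03 and 1.46 in YFP-positive and Bcl6-genotype cells), Foxk2 (0.95 and 0.82), which encodes a forkhead factor, and in the Bcl6 genotypes Rheb (0.93), whose GTPase activates mTORC1. Akt1 stayed called in 6 of 11 and 11 of 13 alternatives, Foxk2 in 3 of 11 and 4 of 13, and Rheb in 6 of 13. With the normalization set as a block Akt1 (0.57 and 0.64), Foxk2 (0.64 and 0.04) and Rheb (0.21) were all lost. Leaving out naive 1 or naive 2 ended these calls too, apart from that of Akt1 in the Bcl6 genotypes. Akt1 was lost besides without YFP-positive 1, Foxk2 without YFP-positive 1, 2 or 3, Bcl6yfp/+ 2 or 3 or Bcl6+/+ 2 or 3, and Rheb without Bcl6yfp/+ 2 or 3 or Bcl6+/+ 3. Myc, a driver of glycolysis after T cell activation, was 6.56, 8.59, 7.41 and 6.56 in YFP-positive, 7.81, 8.31, 8.13 and 7.10 in YFP-negative, 9.58, 10.10 and 9.36 in CXCR5lo PD-1lo, 7.80, 7.29 and 7.08 in Bcl6yfp/+, 8.82, 6.92 and 7.07 in Bcl6+/+ and 9.57 and 9.93 in naive cells. CXCR5lo PD-1lo cells were at the naive level and all CXCR5hi PD-1hi arrays lay below both. Myc fell by 2.40 and 1.84 in YFP-positive and YFP-negative cells against CXCR5lo PD-1lo cells, and by 2.47, 1.91 and 2.25 in YFP-positive, YFP-negative and Bcl6-genotype cells against naive. The Myc call in YFP-negative against CXCR5lo PD-1lo cells was lost without any 1 of 6 arrays (adjusted p = 0.0518 to 0.164), namely the 3 CXCR5lo PD-1lo arrays and YFP-negative 1, 3 and 4, and also without the filter (0.0898) or with day as a covariate (0.122). Against naive cells the YFP-positive and Bcl6-genotype calls were lost without naive 2 (0.0522 and 0.0644), and the YFP-negative call without naive 1 (0.0785), naive 2 (0.19) or YFP-negative 4 (0.0562), without the filter (0.055) or with day as a covariate (0.0554).

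Of 41 further HIF pathway and hypoxia response genes, 14 rose and 4 fell in YFP-positive, 9 rose and 3 fell in YFP-negative, 7 rose in CXCR5lo PD-1lo and 15 rose and 3 fell in Bcl6-genotype cells against naive cells. Of all genes 22.4%, 16.5%, 10.3% and 28.4% rose and 6.44%, 4.62%, 1.57% and 5.9% fell in that order. Bhlhe40, a transcriptional repressor, was at 2.33 and 2.06 in naive cells and at 11.02 to 12.95 on all other arrays, so it rose by 10.11, 9.46, 9.98 and 9.94. Ak4, a mitochondrial adenylate kinase, was 8.41, 8.62, 8.17 and 9.79 in YFP-positive, 7.20, 5.92, 4.22 and 8.58 in YFP-negative, 2.54, 3.12 and 2.23 in CXCR5lo PD-1lo, 6.69, 8.34 and 8.34 in Bcl6yfp/+, 9.01, 8.34 and 8.54 in Bcl6+/+ and 3.81 and 4.92 in naive cells. Like Aldoc, it was low in CXCR5lo PD-1lo cells, and it rose against them by 6.12 in YFP-positive cells and 3.85 in YFP-negative cells (3.85 became 2.32 and was not called with the median over probe sets, adjusted p = 0.0683). Hmox1, heme oxygenase, rose as well (4.75 and 4.11). Of the 41 genes, 2 rose and 4 fell in each of the comparisons of YFP-positive and YFP-negative cells with CXCR5lo PD-1lo cells, and the 6 were the same. Of all genes 5.17% and 3.13% rose there and 5.39% and 3.39% fell. The median of the 41 was 0.11 for the YFP-positive and -0.06 for the YFP-negative group. Besides Ak4 and Hmox1, which rose, Epas1, Ndrg1, Car12 (a carbonic anhydrase; -2.50 and -3.01) and Hilpda (a lipid droplet protein; -0.72 and -0.84) fell. Under 13 alternatives Car12 stayed called in 5 and 8, and Hilpda in 6 and 7, of the YFP-positive and YFP-negative comparisons. Car12 was lost without the filter or with day as a covariate, without CXCR5lo PD-1lo 1 or 3 and without YFP-negative 4 or YFP-positive 2, 3 or 4, and in YFP-positive cells also without CXCR5lo PD-1lo 2. Hilpda was lost with quantile normalization or day as a covariate, without CXCR5lo PD-1lo 1 or 2, and without YFP-positive 2, 3 or 4 or YFP-negative 1 or 4. Ndrg1, a gene strongly induced by hypoxia in many cells, was highest in naive cells (9.38 and 8.74), at 6.61, 6.86 and 6.82 in CXCR5lo PD-1lo cells and at 2.44 to 3.91 in YFP-positive cells, and fell by 3.53 in YFP-positive and fell by 3.27 in YFP-negative cells against CXCR5lo PD-1lo cells. With the median over probe sets the first became -1.36 (adjusted p = 0.0482) and the second became -1.39 and was not called (adjusted p = 0.0616). Epas1, which encodes HIF-2α, was 8.10, 6.72, 5.66 and 7.84 in YFP-positive and 8.09, 7.30, 7.09 and 8.14 in YFP-negative cells, against 11.71, 11.11 and 10.07 in CXCR5lo PD-1lo cells and 10.80 and 8.95 in naive cells. It fell by 3.89 and by 3.31 in YFP-positive and YFP-negative cells against CXCR5lo PD-1lo cells with no overlap. Its fall against naive cells (-2.80, -2.22 and -2.06 in YFP-positive, YFP-negative and Bcl6-genotype cells) was lost without naive 1 (adjusted p = 0.104, 0.291 and 0.28, limma), and in YFP-negative cells also without YFP-negative 2 (0.0518) or 3 (0.0541) or without the filter (0.0529). The Hif1a and Epas1 transcripts stood in opposite order between CXCR5hi PD-1hi and CXCR5lo PD-1lo cells, although Hif1a was not called there (0.73 ± 0.25, adjusted p = 0.0751, and 0.62 ± 0.25, adjusted p = 0.189).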

How the data were processed

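The authors deposited log2 expression values per probe set, made with GCRMA per the submitters' processing notes; its version was not given in the sources read here. Per the labels' protocols RNA came from TRIzol, or from TRIzol or RNeasy for Bcl6yfp/+, Bcl6+/+ and naive 2 cells, so extraction may differ between groups. Of 45101 probe sets, 64 were controls, 34945 carried 1 symbol, 932 several and 9160 none in the platform annotation, and 34741 matched RefSeq (GRCm38.p6) by Entrez identifier. Of 18193 genes, 9928 passed the filter.

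Group means were fitted to all arrays by limma 3.58.1 under R 4.3.3, with day as an added term for the day effect, and p-values were adjusted by Benjamini-Hochberg over the 9928 genes within a comparison. All adjusted p-values in the text are limma's, and errors of differences are SE. Precision is limited by the number of arrays. The fit was tested on simulated data. Arrays whose ordered values lay within 0.06 log2 of each other on average were taken as 1 normalization set (at most 0.0482 within sets, at least 0.0666 between). Replicate numbers were taken to pair the samples, since the deviations of same-numbered arrays from their group means correlated at 0.267 to 0.868 among both YFP groups and CXCR5lo PD-1lo cells and at 0.572 to 0.640 between the Bcl6 genotypes. Alternatives were no filter, the median over probe sets, quantile normalization, the set or the replicate number as a block, day as a covariate, and leaving out each array.

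The genes, the other lists and the rule for named genes were chosen with earlier results of these data known. By that rule, values on every array are given for Slc2a1, Slc2a3, Hk1, Hk2, Ldha, Ldhb, Pdk1, Hif1a and, per comparison, up to 4 called genes at either end of the fold changes. Genes named from the other lists are among the 4 largest called changes per direction. Printed promoters are those of the 4 genes with the largest called change against naive cells that hold ACGTG.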

Additional observations from a re-analysis of the deposited data

Results flagged for a closer look

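Among 60 groups of 4 arrays, 5 had 1 array standing apart from the other 3 by more than Dixon's critical value, where chance gives about 1 in 20, or 3. Aldoc was 6.80 on YFP-negative 1, against 8.28 to 8.42 on the other YFP-negative arrays, and Hif1a was 13.53 on YFP-negative 3, against 13.95 to 13.98. Pgk1 was 13.86 on YFP-negative 2, against 13.44 to 13.47. Pdk2 was 5.72 on YFP-positive 4, against 2.18 to 2.30, and Bnip3 was 10.26 on the same array, against 8.67 to 8.89. YFP-positive 4 is the day 10 array of its group and belongs to normalization set 4, so day, set and sample cannot be told apart for it. YFP-negative 1 also carries the Jchain and Lyz2 transcripts given in the report, whose part in the Aldoc value was not tested.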

How the results depend on the processing

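Of 77 called differences of the 30 genes, 33 kept their call under every alternative tried for them and 0 changed sign. Calls were lost 8 times without the filter, 7 with the median over probe sets, 13 with quantile normalization, 12 with the set as a block, 7 with day as a covariate and 1 of 15 with the replicate block (Hk2, YFP-negative against CXCR5lo PD-1lo). Quantile normalization gave 15 called genes in YFP-positive against CXCR5lo PD-1lo cells and 1 in YFP-positive against YFP-negative cells (Pkm), with 1953 and 66 of the 9928 genes called. With the normalization set as a block the counts were 21 and 15 in YFP-positive and YFP-negative against CXCR5lo PD-1lo cells, 12 in YFP-positive against YFP-negative cells, and 13 in CXCR5lo PD-1lo cells and 12 in the Bcl6 genotypes against naive cells, while 4439, 3026, 1545, 2315 and 2449 of the 9928 genes were called in that order. Under that block Slc16a1 in YFP-negative against naive cells was -1.17 and called, with its sign turned from 0.04, which was not called. The set and the replicate number as a block give equal differences between the YFP groups, so their counts there differ through the estimated spread. The cause of the other shifts was not tested. With the replicate block, which rests on pairing by replicate number, the counts were 13, 8 and 0 in YFP-positive against CXCR5lo PD-1lo, YFP-negative against CXCR5lo PD-1lo and YFP-positive against YFP-negative cells, and 0 in Bcl6yfp/+ against Bcl6+/+ cells; the gene calls it changed are given in the report. Leaving out 1 array gave 6 to 9, 3 to 5, 0 to 1 and 0 to 0 called genes in those 4 comparisons, 14 to 20, 8 to 15, 2 to 7 and 11 to 22 in YFP-positive, YFP-negative, CXCR5lo PD-1lo and Bcl6-genotype cells against naive, and 0 to 1 for day. Of all 9928 genes 654 to 1051, 414 to 605, 4 to 307 and 0 to 0 were called in the first 4. In the comparisons with naive cells they were 1585 to 3183, 1122 to 2106, 569 to 1148 and 1713 to 5255, and for day 0 to 394. With 2 naive arrays, most losses against naive cells came from leaving out either. GCRMA values near 2 carry no order, which limits fold changes of Egln3, Hk2, Aldoc, Slc16a3 and Pdk2.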
